A study of Homo sapiens with 2 samples.

Results

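RNA crosslinked to SOX2 was examined at 7 genes of the translation machinery: EEF1A1, EEF2, EIF4A1, EIF4G1, EIF4G2, PABPC1 and TPT1. The genes were chosen by name, with earlier results of these data known. Their sites were taken as every listed site that overlapped a set hg19 interval on the strand of the gene. This gave 35 of the 16964 sites of replicate 1 and 106 of the 55830 sites of replicate 2. SOX2, a transcription factor that binds DNA through its HMG box, was expressed from a transfected plasmid as a FLAG-tagged protein in HEK293T cells, a human embryonic kidney line carrying the SV40 large T antigen. PAR-CLIP was performed as 2 independent experiments of 1 group: cells took up 0.2 mM 4-thiouridine, a photoreactive uridine, for 16 hours, and protein was crosslinked to RNA at 365 nm before FLAG immunoprecipitation and sequencing of the RNase T1 fragments. Both experiments had the same settings: 24 hours after transfection, 0.4 J/cm2 of UV, and RNase T1 at 1 U/ml and then 10 U/ml. KCl was at 300 mM in the washes and 500 mM in the high-salt step. No control library was used here, so neither RNA abundance nor background crosslinking was measured. The sources used here do not state which promoter the SOX2 plasmid carried. Each site has a score, a whole number of at least 5, and what it counts is not stated either. The score sum was 5365592 for replicate 1 and 5192778 for replicate 2, and read depth is unknown.

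Translation of an mRNA begins when the eIF4F complex binds its cap. EIF4G1 encodes the scaffold of that complex, EIF4A1 its RNA helicase, and PABPC1 the poly(A)-binding protein that contacts the scaffold. EIF4G2 encodes a related scaffold that lacks the binding region for the cap-binding protein eIF4E. In elongation, the product of EEF1A1 brings aminoacyl-tRNA to the ribosome and that of EEF2 moves the ribosome along the mRNA. TPT1 encodes the translationally controlled tumor protein, an abundant protein known for the translational control of its own mRNA. Many mRNAs of the translation machinery start with a 5′ terminal oligopyrimidine tract, a C followed by a run of pyrimidines, through which mTOR signalling controls their translation.

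RefSeq start windows (GRCh38.p14) were matched for 6 of the 7 genes, all but PABPC1. An annotated start at a C followed directly by at least 4 bases that are each C or T was found at 3 of the 9 windows of these genes, 1 each for EEF1A1, EEF2 and TPT1, and at 4.07% of all 35116 start windows of the table; only the transcribed strand at the start itself was read. The 3 tracts and, for contrast, the start of EIF4A1 are shown because they mark where the RNAs of these genes begin. Each window runs from 10 bases before to 20 bases from the start. Capitals mark the tract, or for EIF4A1 the first base. The site lists are on hg19, and these windows were not placed on them.
EEF1A1 (chr6:73521013-73521042, minus strand): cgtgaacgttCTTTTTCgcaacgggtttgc
EEF2 (chr19:3985444-3985473, minus strand): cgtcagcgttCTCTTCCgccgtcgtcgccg
TPT1 (chr13:45341164-45341193, minus strand): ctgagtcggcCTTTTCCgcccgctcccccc
EIF4A1 (chr17:7572815-7572844, plus strand): ggcactccgcCctagtttctaaggatcatg

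All 7 genes had sites in both experiments. In replicate 1, EEF1A1 had 13 sites, EIF4A1 had 5, EEF2, EIF4G1 and TPT1 had 4 each, PABPC1 had 3 and EIF4G2 had 2. In replicate 2, EEF2 had 25, EEF1A1 had 21, EIF4G1 had 19, EIF4G2 had 17, PABPC1 had 9, EIF4A1 had 8 and TPT1 had 7. The order of the genes by number of sites thus differed between the experiments (Spearman's rho 0.15 over 7 genes, which share the libraries), with EEF1A1 first in one and EEF2 in the other. Replicate 2 listed 3.29-fold as many sites as replicate 1 in all, but 1.6-fold as many at EIF4A1 and 1.62-fold at EEF1A1, against 8.5-fold at EIF4G2 and 6.25-fold at EEF2. Together the members held 0.198% ± 0.0116 (SD, n = 2) of the sites in a list, 0.206% (95% Wilson interval 0.148 to 0.287) in replicate 1 and 0.19% (0.157 to 0.23) in replicate 2.

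By score the genes were far more unequal. EEF1A1 summed to 12048 in replicate 1 and 28573 in replicate 2, or 0.225% and 0.55% of the score of each list. EIF4A1 summed to 6556 and 2160, or 0.122% and 0.0416%. PABPC1 followed in replicate 1 with 1968 (0.0367%) and had 1341 (0.0258%) in replicate 2. TPT1 summed to 566 and 1248, and EIF4G1 to 328 and 526. The lowest sums in replicate 1 were those of EIF4G2 and EEF2, at 150 and 126, while in replicate 2 they reached 814 and 1431. EEF1A1 alone took 55.4% of the members' score in replicate 1 and 79.2% in replicate 2. The order by score sum was more alike between experiments than that by sites (rho 0.61 over the 7 genes). EIF4A1 and PABPC1 carried a larger share of the score in replicate 1, and the other 5 genes a larger share in replicate 2.

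**Figure D1:**
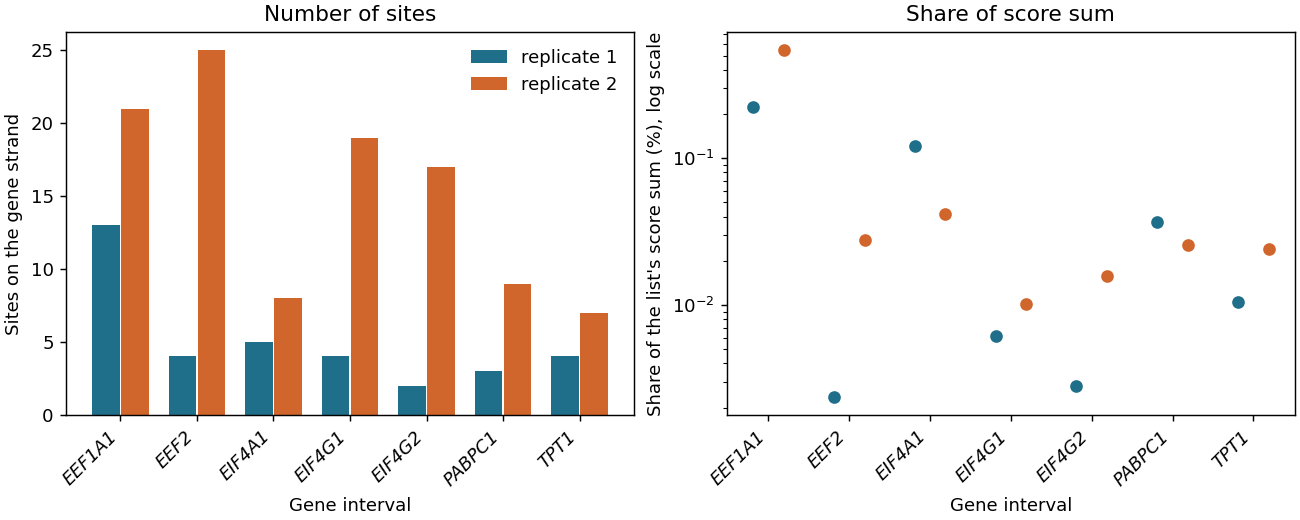
Sites on the gene strand (left, bars from 0) and share of the list's score sum in percent (right, log scale) for each gene interval, replicate 1 in blue and replicate 2 in orange, 1 value per library and no error bars. EEF1A1 leads in score in both experiments, whereas EEF2 has 4 and 25 sites and 0.00235% and 0.0276% of the score.

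Compared with windows of the same length across the lists, the gene intervals were among the more densely occupied. When the chromosome strands were divided into windows of 6 kb, the length of the EEF1A1 interval, 5 of the 13710 windows with a site in replicate 1 held as many sites as EEF1A1 or more, and 19 of 29123 in replicate 2. For EEF2, the corresponding numbers for windows of 10 kb were 297 of 12912 and 15 of 25262. EIF4A1 was matched by 97 of 13465 windows of 7 kb in replicate 1 and 697 of 27994 in replicate 2. EIF4G2 stood lowest in replicate 1, with 2749 of 12511 windows of 13 kb at its 2 sites or more, but was matched by only 93 of 23378 windows in replicate 2. PABPC1 was matched by 1128 of 11679 windows of 20 kb in replicate 1 and 1029 of 20274 in replicate 2. For EIF4G1 the numbers were 514 of 11465 and 114 of 19614 windows of 22 kb. For TPT1 they were 183 of 13930 and 800 of 30431 windows of 5 kb. The intervals were placed on genes chosen with earlier results of these data known. The windows were laid without regard to genes and can divide them, and the counts can include windows over these genes themselves. These ranks describe the lists and say nothing of crosslinking per RNA molecule, since abundance was not measured.

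Member sites scored above the lists as a whole, with a median of 98 against 26 in replicate 1 and 35.5 against 19 in replicate 2. The members were chosen with earlier results of these data known, so this difference is a description only. A score of at least 100 was reached by 17 of 35 member sites in replicate 1, against 14.8% of all sites of that list, and by 26 of 106 in replicate 2, against 7.34%. Without EEF1A1 the numbers were 6 of 22 (27.3%, interval 13.2 to 48.2) and 14 of 85 (16.5%, 10.1 to 25.8), and the medians were 50.5 and 31. Member sites were about as short as others, with medians of 18 nt and 19 nt against 16 nt and 17 nt for the lists. The longest member sites, 51 nt in replicate 1 and 55 nt in replicate 2, both belonged to EEF1A1.

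EEF1A1, on the minus strand of chromosome 6 between 74225001 and 74231000, had nearly all of its signal at the upstream edge of the interval. The last 1 kb there, from 74230001 to 74231000, held 11 of 13 sites in replicate 1 and 11 of 21 in replicate 2. It carried 98.2% and 96.3% of the interval's score, 97.2% ± 1.34 (SD, n = 2). Its bounds were set with these values in view. The interval ends are whole kb, and the EEF1A1 start was not placed on hg19. Whether sites of this stretch lie upstream of the start, in an exon or in an intron was therefore not tested. Scores within this 1 kb ran from 70 to 7171, with a median of 460, in replicate 1, and from 93 to 8192, with a median of 1205, in replicate 2. Over the other 5 kb of the interval the sites were fewer and weaker: 2 sites with scores of 85 and 136 in replicate 1, and 10 sites between 11 and 526, with a median of 32.5, in replicate 2. No other stretch of 1 kb, counted in whole kb, held 11 or more sites on a strand in replicate 1, and 3 others did in replicate 2.

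The strongest EEF1A1 site was the same in both experiments. In replicate 1 it lay at 74230156 to 74230173, with a score of 7171 and rank 53 of its list. Its partner in replicate 2, at 74230148 to 74230173, had 8192 and rank 46. Both began at the same 5′ base and scored within 1.14-fold of each other. The neighbouring pair did not score alike: the site at 74230188 to 74230214 had 460 in replicate 1, and its partner at 74230186 to 74230218 had 5346 in replicate 2, 11.6-fold more. A site at 74230108 to 74230139 scored 4234 in replicate 2, and the nearest site of replicate 1 was 16 nt away. The strongest EEF1A1 site of replicate 1 without a partner, at 74230792 to 74230810, scored 1143 and lay 34 nt from a replicate 2 site.

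Further pairs of EEF1A1 sites scoring at least 100 in both lists followed along the same stretch. The sites at 74230269 to 74230319 and 74230336 to 74230357 in replicate 1 scored 719 and 258, and both overlapped the replicate 2 site at 74230303 to 74230357, which scored 2949. Next to them, the site at 74230387 to 74230401 scored 664, and its partner at 74230387 to 74230404 scored 3297. Closest to the edge were pairs beginning at 74230843 (226 in replicate 1 and 966 in replicate 2) and at 74230866 (111 and 553). One such pair lay outside the stretch, where the site at 74226223 to 74226246 scored 136 in replicate 1 and its partner at 74226230 to 74226250 scored 303. All 10 EEF1A1 pairs scored higher in replicate 2, by 1.14-fold to 11.6-fold, whereas among all 3636 pairs of overlapping sites in the lists 42.9% did so.

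The upstream stretch of EEF1A1 was also occupied on the opposite strand. In replicate 1, 3 opposite-strand sites scored 47, 44 and 116 and made up 1.72% of the score of both strands. In replicate 2 there were 8, between 48 and 815, which made up 9.27%. All of them lay within the same 1 kb, and 2 pairs overlapped between experiments, with scores of 47 and 232, and of 44 and 48. An opposite-strand site of the same list lay within 1 kb of 12 of 13 EEF1A1 sites in replicate 1, against 2.05% of all sites, and of 12 of 21 in replicate 2, against 3.5%. In replicate 1, 4 other stretches of 1 kb, of 15569 with a site, held at least 3 sites on each strand. In replicate 2, 1 other of 41747 held at least 8 on each. The remaining 6 genes had a single opposite-strand site between them, at EIF4A1 in replicate 2 with a score of 20, beside 22 gene-strand sites in replicate 1 and 85 in replicate 2.

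**Figure D2:**
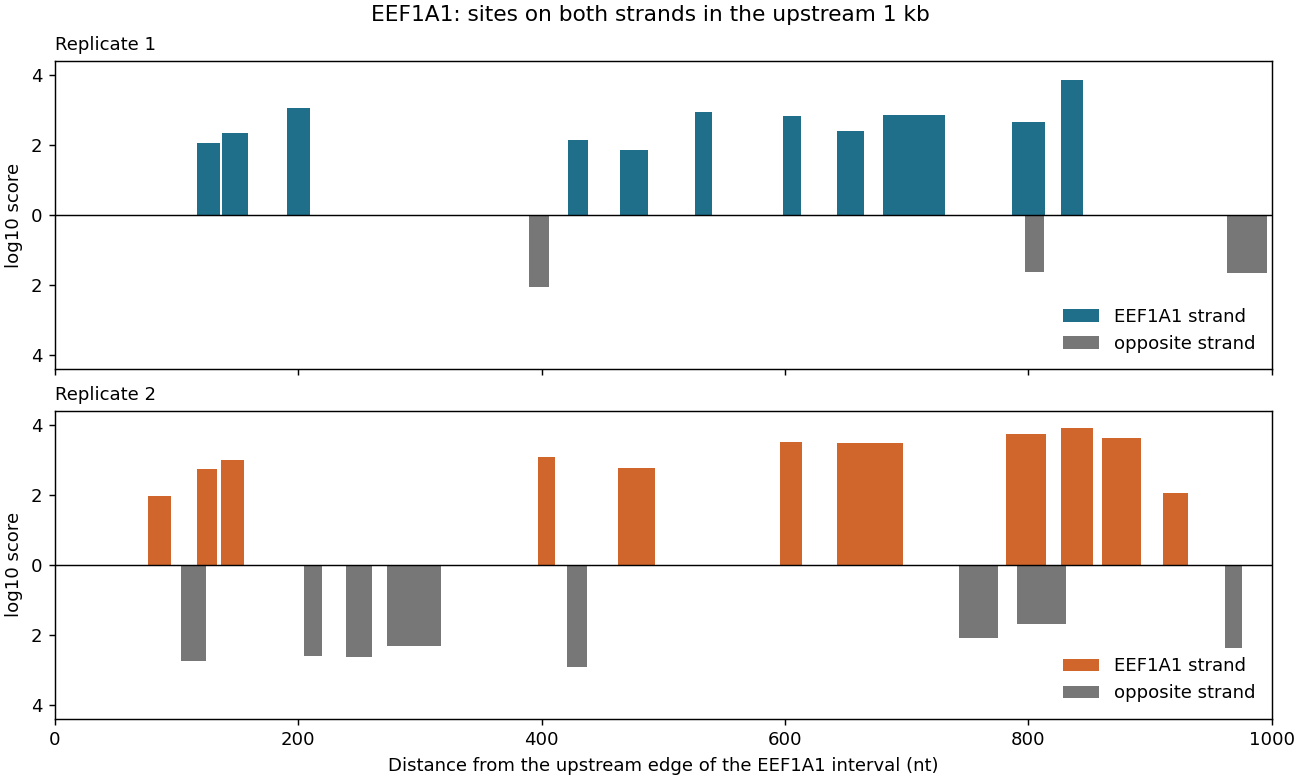
Sites in the 1 kb at the upstream edge of the EEF1A1 interval, with distance from that edge in nt on the horizontal axis and log10 score as bar height, each bar as wide as its site. Sites on the EEF1A1 strand point up and those on the opposite strand (grey) point down. Each experiment shows 11 gene-strand sites, with 3 opposite-strand sites in replicate 1 and 8 in replicate 2.

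RefSeq names 50 pseudogenes of EEF1A1, and the EEF1A1 promoter with its first intron is widely used to drive genes in expression plasmids. Neither the handling of reads with several matches nor the promoter of the SOX2 plasmid is stated in the sources used here, so chromosomal and plasmid RNA cannot be told apart in these lists. Whether any of the pseudogenes holds this stretch was not tested, nor was the part of pseudogenes or plasmid in the EEF1A1 scores. Outside the upstream stretch, whose bounds were set with the values in view, the EEF1A1 sum was 221 in replicate 1 and 1051 in replicate 2.

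The site names group neighbouring sites under a common number, such as G1.1 and G1.2. In replicate 2 all 11 EEF1A1 sites of the upstream stretch shared a single number and spanned 855 nt, from 74230070 to 74230924. In that list, 4 numbers, this one included, covered 11 sites or more, and a number covered 1.07 sites on average. In replicate 1, 2 numbers of EEF1A1 covered 3 sites each, 1 of them over 164 nt, and 16 numbers of that list covered 3 sites or more. The sources used here do not state what the numbers stand for.

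EEF2, on the minus strand of chromosome 19 between 3976001 and 3986000, had few sites in replicate 1 and more in replicate 2. Its 4 sites in replicate 1 scored 27, 36, 28 and 35, all close to the median of 26 over the list. The 25 sites of replicate 2 scored between 9 and 368 with a median of 25, and 4 of them reached 100. The strongest, at 3980585 to 3980599, scored 368 and lay 880 nt from the nearest replicate 1 site; the strongest of replicate 1, at 3979683 to 3979704, scored 36. None of the EEF2 sites overlapped between the experiments, though the replicate 1 site at 3982421 to 3982438 was only 7 nt from a replicate 2 site. Over the lists, 21.3% of replicate 1 sites and 6.5% of replicate 2 sites were shared. Divided into 3 equal parts from upstream to downstream, the EEF2 interval held 9, 8 and 8 sites in replicate 2. The gene hosts SNORD37, a small nucleolar RNA, in the RefSeq annotation. RefSeq also lists SNORD66 at EIF4G1, SNORD97 at EIF4G2 and MIR7705 at PABPC1.

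EIF4A1 owed its score to a single position. On the plus strand of chromosome 17, in the interval from 7476001 to 7483000, the site at 7480168 to 7480183 scored 6386 in replicate 1, rank 61 of the list and 97.4% of the gene's score. Its partner at 7480164 to 7480177 scored 1496 in replicate 2, rank 193 and 69.3% of the gene's score. The partners overlapped by 10 nt, and the score was 4.27-fold higher in replicate 1. A second pair, at 7481156 to 7481177 and 7481153 to 7481175, had the larger score in replicate 2 (313 against 32), and the third began at 7482028 in both, with scores of 70 and 36. Apart from these pairs, EIF4A1 sites scored 22 and 46 in replicate 1 and between 8 and 31 in replicate 2. The exception was a replicate 2 site of 242 that lay 34 nt from the strong site of replicate 1. RefSeq places SNORA48, SNORD10 and SNORA67 within EIF4A1, together with the read-through transcript SENP3-EIF4A1. Without a gene annotation on hg19 the strong position could not be assigned to an exon, an intron or one of these small RNAs.

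The cap-complex scaffold EIF4G1, on the plus strand of chromosome 3 between 184032001 and 184054000, had 4 sites in replicate 1 with scores of 203, 49, 56 and 20. The strongest lay at 184042014 to 184042027. In replicate 2 its 19 sites ran from 6 to 70, with the strongest at 184040947 to 184040965. Not one overlapped between the experiments, and the closest approach was 46 nt. Most replicate 2 sites of EIF4G1 lay in the middle of the interval: 11 of the 19 fell in the central part of 3, with 4 on either side. In replicate 1 the same central part held 3 of 4, 1 of them at 65.9% of the interval and thus close to its boundary. Over all members without EEF1A1, EIF4G1 included, the central part held 36.5% of sites in replicate 2 and 40.9% in replicate 1.

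EIF4G2, on the minus strand of chromosome 11 between 10818001 and 10831000, had 2 sites in replicate 1, with scores of 52 and 98, the latter at 10824792 to 10824805. Replicate 2 listed 17, between 5 and 115, the strongest at 10827521 to 10827538. No pair overlapped, but the site at 10821252 to 10821271 in replicate 1 lay 8 nt from one of replicate 2. Both scaffold genes thus had more sites in replicate 2 than in replicate 1. The ratio was 4.75 for EIF4G1 and 8.5 for EIF4G2, against 3.29 over the lists. Their median scores in replicate 2 were 25 and 42, against 19 for all sites. Neither had a shared position, but only 21.3% of all replicate 1 sites and 6.5% of all replicate 2 sites were shared. With so few replicate 1 sites, the lack of a pair says little about these genes. No site of these genes or of EEF2 scored above 368 in either experiment.

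**Figure D3:**
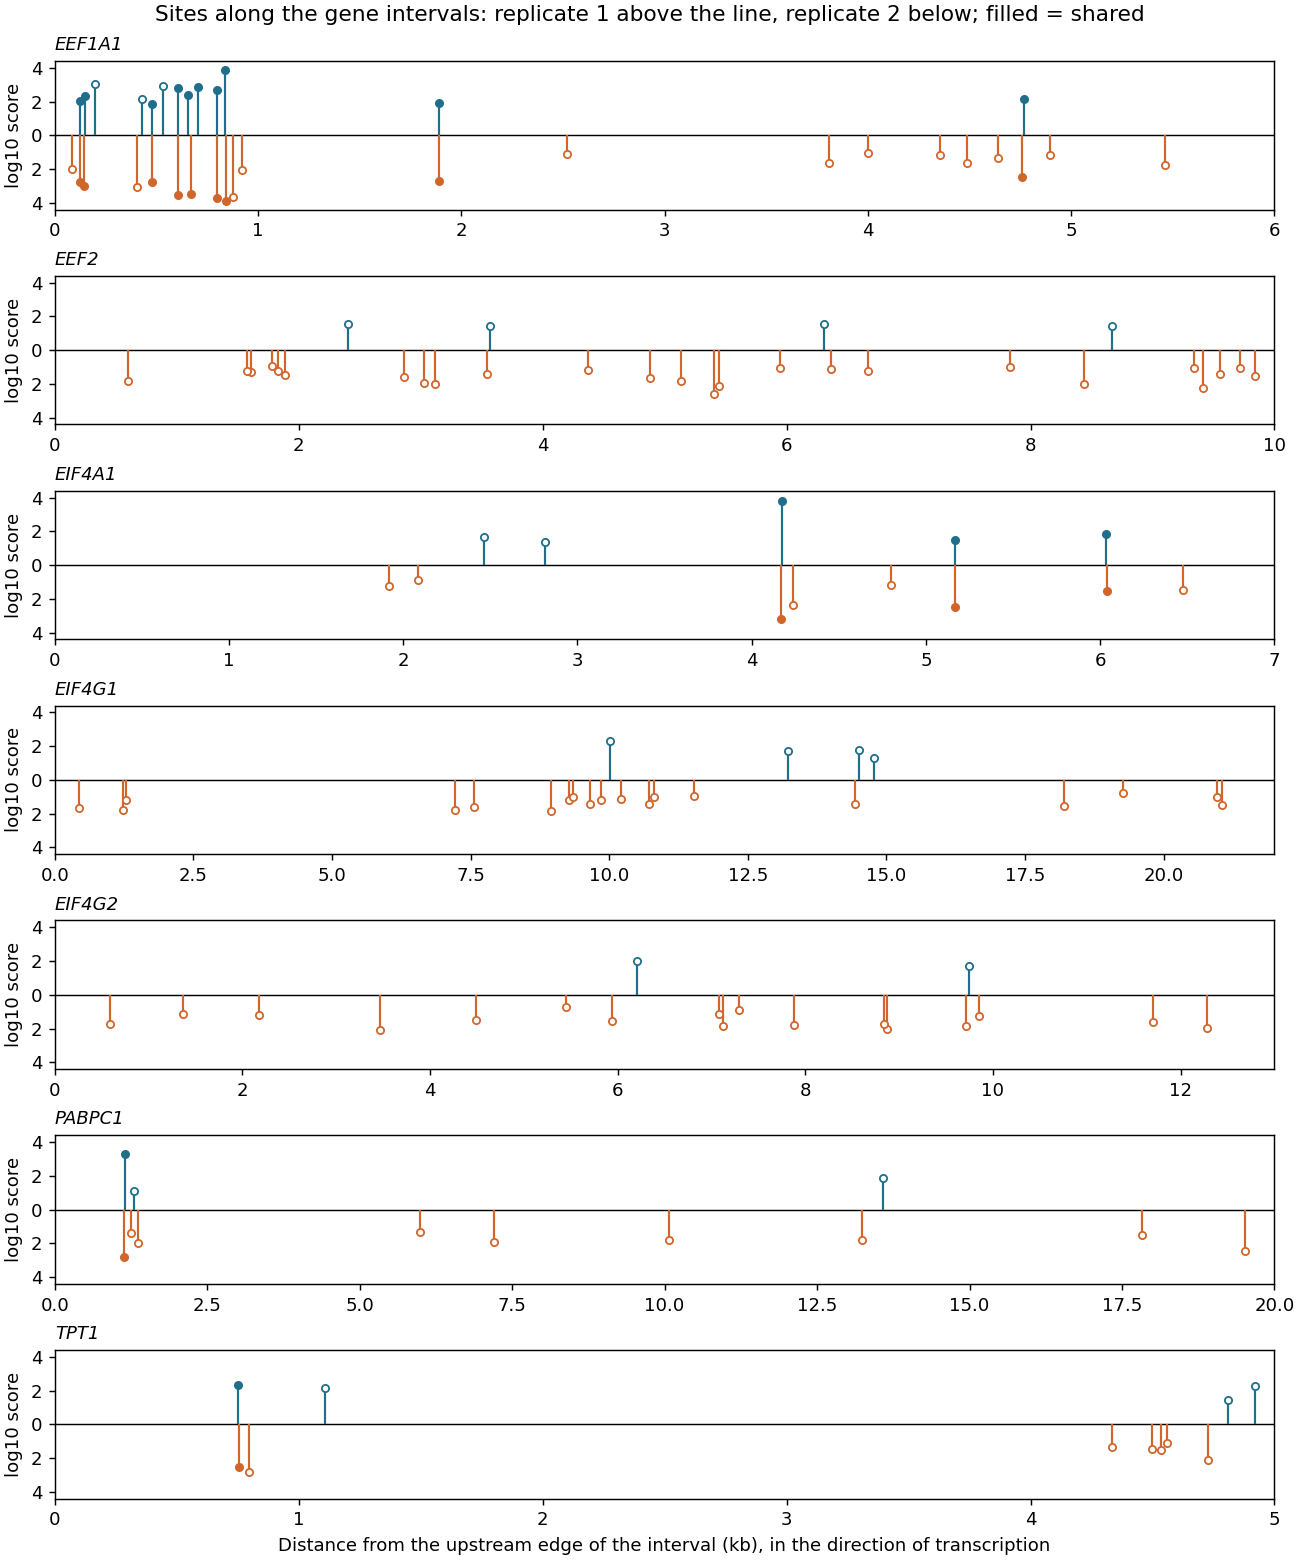
Sites along each gene interval, with distance from the upstream edge in kb on the horizontal axis and log10 score as the height of each stem, replicate 1 above the line and replicate 2 below; filled circles overlap a site of the other replicate. Filled circles occur at EEF1A1 (10 in replicate 1), EIF4A1 (3), PABPC1 (1) and TPT1 (1) and at none of the other genes.

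PABPC1, on the minus strand of chromosome 8 between 101715001 and 101735000, again showed a single strong position. The site at 101733849 to 101733864 scored 1880 in replicate 1 (rank 165), and its partner at 101733850 to 101733865 scored 678 in replicate 2 (rank 400). The partners were shifted by 1 nt at both ends. This position carried 95.5% of the gene's score in replicate 1 and 50.6% in replicate 2. It lay 1144 nt from the upstream edge of the 20 kb interval, and the nearest PABPC1 sites downstream of it scored 13 in replicate 1 and 96 and 26 in replicate 2. At the opposite end of the interval, a replicate 2 site at 101715472 to 101715495 scored 273, and the nearest replicate 1 site was 5914 nt away. RefSeq names 13 pseudogenes each for PABPC1 and EIF4A1, and their part in these scores was not tested.

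TPT1, on the minus strand of chromosome 13 between 45911001 and 45916000, had sites near both ends of its interval and none between. In replicate 1 the sites at the upstream end scored 215 and 143 and those at the downstream end 27 and 181. In replicate 2 the upstream sites scored 329 and 695, and 5 downstream sites scored between 13 and 125. In the one shared pair, the replicate 1 site at 45915239 to 45915257 scored 215 and its partner at 45915237 to 45915251 scored 329. The strongest TPT1 site of replicate 2, with 695, lay 19 nt from that replicate 1 site, at 45915192 to 45915219. At the downstream end the nearest sites of the experiments were 63 nt apart. TPT1 has 14 named pseudogenes and hosts SNORA31 and SNORA31B in RefSeq.

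Agreement between the experiments was set by EEF1A1. Sites counted as shared overlapped a same-strand site of the other experiment by 1 nt or more. Of the member sites, 15 of 35 (42.9%, interval 28.0 to 59.1) in replicate 1 and 14 of 106 (13.2%, 8.03 to 21.0) in replicate 2 were shared, against 21.3% and 6.5% of all sites in the lists. EEF1A1 contributed 10 and 9 of these. Without it, 5 of 22 (22.7%, 10.1 to 43.4) and 5 of 85 (5.88%, 2.54 to 13.0) were shared, near the shares of the whole lists. Among sites with scores of at least 100, 11 of 17 in replicate 1 and 13 of 26 in replicate 2 were shared, against 49.1% and 28.9% of all such sites. Outside EEF1A1 these were 3 of 6 and 4 of 14. Sites of a single RNA are not independent, and no test of these differences was made.

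**Figure D4:**
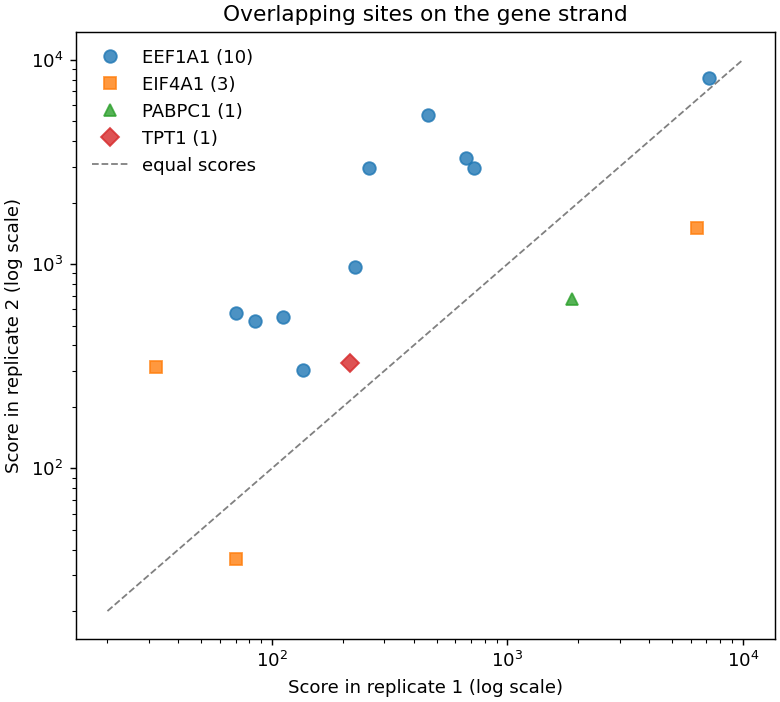
Scores of the 15 pairs of overlapping sites on the gene strand, replicate 1 on the horizontal and replicate 2 on the vertical axis (both log scale), with the dashed line marking equal scores. The 10 EEF1A1 pairs lie above the line, while the strongest EIF4A1 pair and the PABPC1 pair lie below it.

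Identical 5′ ends were found in 5 of the 15 pairs and identical 3′ ends in 1, and the shares of these over all pairs are not given here. Of the 15 pairs, 8 had 5′ ends within 2 nt of each other and 8 had 3′ ends within 2 nt. Over all pairs of the lists the shares within 2 nt were 42.0% and 45.4%. The largest shifts among the 15 pairs were 38 nt at the 5′ end and 34 nt at the 3′ end. In score they did not move together: 12 of the 15 were higher in replicate 2, against 42.9% of all 3636 pairs, and 10 of these were EEF1A1 pairs. The EIF4A1 pair at 7481156 and the TPT1 pair were also higher in replicate 2. Those of EIF4A1 at 7480168 and 7482028 and that of PABPC1 were higher in replicate 1. Each library gives 1 value per pair, so these score differences were not tested. Of the sites without a partner, 8 of 20 in replicate 1 and 10 of 92 in replicate 2 lay within 50 nt of a site of the other replicate, against 12.9% and 4.48% of the unpartnered sites of the whole lists. Without EEF1A1 the counts were 5 of 17 and 7 of 80.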

How the data were processed

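The deposited data were 2 site lists of 6 columns without a header, whose score per site is a whole number made by the authors. Per the submitters' processing notes, bcl2fastq and Bowtie 1.1.2 were used with hg19. The sources used here state neither the site caller nor what the score counts. The gene annotation supplied was on GRCh38, so no coordinates were converted, sites were not assigned to exons, and a wider list of translation factors was not analysed here. RefSeq tables (GRCh38.p14) gave names, neighbours and start windows only.

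Sites were selected with Python 3.11.15, numpy 2.4.6 and pandas 2.3.3, and the selection and overlap code was tested on simulated data. Shares carry 95% Wilson intervals (scipy 1.17.1), which cover counting error over sites only; the libraries had 18 PCR cycles, and depth is unknown. Positions count from 1. Distances from an interval edge were taken from site midpoints, and gaps between sites from their nearest edges. With 1 group, no comparison between conditions was made. Named sites are each gene's strongest site per replicate and pairs scoring at least 100 in both, or the best pair; further sites were chosen after their values were seen. Members and lists were chosen with earlier results of these data known.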

Additional observations from a re-analysis of the deposited data

How the results depend on the processing

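Many values rested on EEF1A1 or on the interval edges. Without EEF1A1, an alternative chosen after seeing the data, the mean share fell to 0.141% of sites and 0.163% of score, gene-strand sites rose to 99.4%, sites in the upstream part of 3 went from 41.7% to 26.1%, and shared sites fell to 22.7% and 5.88%. Intervals shortened by 1 kb at both ends gave 0.125% of sites, 0.149% of score, 100.0% on the gene strand, and 25.0% and 6.76% shared. Not only EEF1A1 lost sites by this: EEF1A1 kept 2 of 13 in replicate 1 and 9 of 21 in replicate 2. TPT1 kept 1 of 4 and 0 of 7. Widened intervals gave 92.4% on the gene strand. Scores of at least 100 gave 0.655% of sites and, required in both lists, 64.7% and 38.5% shared. Gaps of up to 50 nt gave 65.7% and 22.6% shared, and limiting replicate 2 to its highest scores gave 23.3% of its sites. The score share was 0.289% without each gene's strongest site and 1.03% outside the 10 strongest sites of each list. Weighted by score, 75.2% lay in the upstream part. Of 31 values that keep both replicates, 10 moved by less than the replicate SD or stayed inside the Wilson interval. With 2 replicates, leaving one out moves a mean by less than the SD by construction. Overlap needs both replicates, so it has no value without one of them. No paired analysis was possible because all samples form 1 group. The list of further translation factors was not run. Depth is unknown, so its effect on weak sites was not tested.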
